A study of Homo sapiens with 4 samples.

Results

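Ephrins, Eph receptors, semaphorins, plexins, SLIT and ROBO proteins, netrins and UNC5 receptors guide axons and are reused by growing vessels. Their genes were taken by symbol alone, from these 8 named families in the deposited tables. Only ROBO1 to ROBO3 and netrins named NTN with a number were included, so ROBO4, NTNG1 and NTNG2 are treated as related genes. This gave 65 of the 17630 genes analysed. They comprised 8 ephrins, 14 Eph receptors, 20 semaphorins, 9 plexins, 6 SLIT and ROBO genes, and 8 netrin and UNC5 genes. RNA came from H1, an established human embryonic stem cell line, at 4 points of a stepwise culture towards blood, with 1 library for each. The undifferentiated cells are called hESC. APLNR+ cells sorted on day 2 are called MES, CD31+CD34+ cells of day 4 HEP, and CD31+CD43+ cells of day 7 HPC. Per the labels' growth protocol, the culture used activin A (40 ng/ml) and BMP4 (50 ng/ml) for the first 2 days and VEGF (40 ng/ml) and bFGF (50 ng/ml) for the next 2 days. VEGF and bFGF were then combined with SB-431542, which blocks the type I receptors of activin, NODAL and TGF-beta, for the last 3 days. All cells came from this cell line, and sorting is stated for MES, HEP and HPC but not for hESC, so a sort cannot be told apart from the step from hESC to MES.

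Ephrins are membrane-bound ligands, tethered by a lipid anchor (ephrin-A) or spanning the membrane (ephrin-B), and they signal to Eph receptor tyrosine kinases on touching cells. In vessels, EFNB2 marks arteries and EPHB4 veins. Semaphorins are secreted or membrane-bound ligands of plexins, and most class 3 semaphorins also need the co-receptors neuropilin 1 or 2. SLIT proteins act through ROBO receptors, and netrins through DCC, neogenin and UNC5 receptors.

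The deposited value is a normalised expression level per gene whose measure (FPKM or TPM) is not stated. Changes are given as log2 differences of (value + 1), and this scale makes the change of low genes look smaller than it is. A gene is called higher or lower at a difference of at least 1 in size with a value of at least 5 in the higher library. With 1 library per stage there is no replicate error and no test, so these calls describe 4 libraries and have no replicate check. Sequencing depth is unknown, and a low value has no counting interval. Fewer cells of a type and less RNA per cell cannot be told apart in such bulk libraries.

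The libraries were first checked against markers. APLNR stood at 344 in MES, against 0.57 in hESC. CD34 stood at 43.6 in HEP and 18.4 in HPC, and SPN, which encodes CD43, at 24.4 in HPC. PECAM1, which encodes CD31, reached 1.83 in HEP and 7.49 in HPC, low values for populations gated on CD31. The summed values of 11 mesoderm markers were 1.52 (hESC), 322 (MES), 47.2 (HEP) and 6.89 (HPC), those of 12 endothelial markers 34.0, 68.0, 584 and 287, and those of 12 blood markers 2.13, 4.13, 76.6 and 923. HBE1 (442) and ITGA2B (283) led the blood sum in HPC. From HEP to HPC, 10 of the 12 blood markers were higher, while RUNX1 and TAL1 were lower. Of the 12 endothelial markers 10 were lower, while CLDN5 and EMCN were higher. Neurons also use guidance genes: of 8 neural markers, 2 (NES and TUBB3) were at 1 or more, in all 4 libraries, and NEUROG2 was listed at 0 throughout. The neural sums were 217, 145, 155 and 25.6, and those of 8 smooth muscle and mesenchyme markers 111, 611, 333 and 96.3, with DCN at 0 in hESC, MES and HEP. The mesenchyme sums were led by TAGLN in hESC, MES and HEP (94.8, 561 and 233, then 12.4 in HPC) and do not stand for each gene. TAGLN, CNN1, PDGFRB and LUM were highest in MES, COL1A1 in HEP, and ACTA2 (19.2), COL3A1 (41.7) and DCN (0.03) in HPC. The part of the mesenchymal and neural genes in the results on guidance genes was not tested.

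In the values as deposited, guidance genes reached these levels most often in MES and least often in HPC. Of the 65, the number at 1 or more was 29 (hESC), 40 (MES), 33 (HEP) and 26 (HPC), and the number at 5 or more was 11, 23, 16 and 8 in the same stage order. Over all genes the number at 5 or more was 6639 (hESC), 6655 (MES), 5191 (HEP) and 5246 (HPC), so it too was lower in the later libraries. In all, 46 reached 1 and 26 reached 5 in some library. The highest value was in hESC for 16 guidance genes (24.6%, against 42.0% of the 17114 genes above 0 in any library), in MES for 24 (36.9%, against 25.3%), in HEP for 19 (29.2%, against 16.1%) and in HPC for 6 (9.23%, against 16.7%). EPHA1, SEMA3A and UNC5D stood at least 2-fold above each other library in hESC, on the scale of (value + 1) and with 5 or more there (3 of 65, against 2.64% of all genes). In MES the same held for EPHA4, EPHB2, EPHB3, NTN4, PLXNA2, SEMA3C and SEMA6D (7 of 65, or 10.8%, against 1.79%). In HEP it held for EPHB4, PLXND1 and SEMA7A (3 of 65, against 1.04%), and in HPC for 0 of 65 (against 1.34%). The counts and highest libraries of this paragraph were not repeated under other scalings. Summed over all genes, the deposited values were 426980 (hESC), 363396 (MES), 306724 (HEP) and 352604 (HPC). Median-of-ratios scaling divides MES by 1.21 and HEP by 0.82, so the lead of MES over HEP may depend on the scaling.

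**Figure D1:**
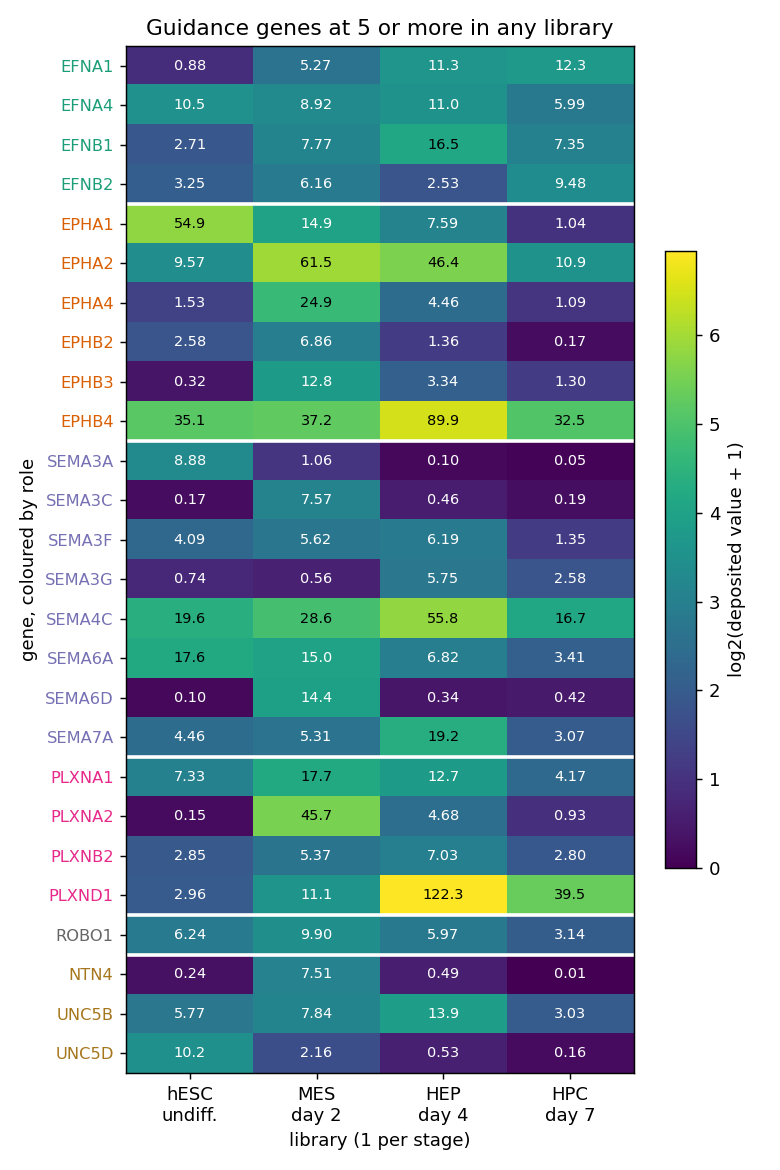
Deposited values (printed) and log2(value + 1) (colour) of the 26 guidance genes at 5 or more in any library, with 1 column per library and genes ordered by role. PLXNA2 reached 45.7 in MES and PLXND1 122.3 in HEP, while EPHA1 was highest in hESC (54.9).

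In the first step, 12 guidance genes were higher in MES than in hESC, which is 18.5% of them, against 3.79% of all genes; 3 (4.62%) were lower, against 3.7% of all genes. The higher genes were PLXNA2, SEMA6D, EPHB3, EPHA4, SEMA3C, NTN4, EPHA2, EFNA1, PLXND1, EFNB1, PLXNA1 and EPHB2, in falling order of difference. The lower genes were SEMA3A, UNC5D and EPHA1. The median difference over the 65 was 0.18, against -0.02 over all genes. From MES to HEP, PLXND1, SEMA3G, SEMA7A and EPHB4 were higher (4 genes, 6.15%, against 3.31% of all genes). In the same step 9 were lower (13.8%, against 13.9%), so the lower share was that of all genes. These were SEMA6D, PLXNA2, SEMA3C, NTN4, EPHA4, EPHB2, EPHB3, SEMA6A and EFNB2, and 7 of the 9 were among the 12 that had been higher in MES than in hESC; both comparisons use the MES library. The median was -0.14, against -0.11. With median-of-ratios scaling the guidance genes split into 8 higher and 7 lower in HEP than in MES, when 8.26% of all genes were higher and 8.20% lower, and the higher share among all called genes was 50.2%, against 19.3% in the values as deposited.

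At the last step, guidance genes passing the rule were nearly all lower in HPC than in HEP: 11 (16.9%, against 3.57% of all genes) were lower and 1, EFNB2, was higher (1.54%, against 3.01%). The 11 were SEMA7A, EPHA1, EPHA2, UNC5B, SEMA4C, PLXND1, SEMA3F, EPHB4, PLXNA1, PLXNB2 and EFNB1. The median difference was -0.42, against 0 over all genes, and 49 of the 65 were below 0, against 7246 of the 17630. Set against the starting cells, HPC had 4 guidance genes higher than hESC (6.15%, against 4.66% of all genes), namely PLXND1, EFNA1, EFNB2 and EFNB1. It had 4 lower (6.15%, against 15.8%), namely EPHA1, UNC5D, SEMA3A and SEMA6A. Here the median was -0.22, against -0.14 over all genes. Among all called genes the higher share in this comparison was 22.8%, or 50.3% with median-of-ratios scaling, which left the guidance genes at 4 and 4. All genes were then 9.04% higher and 8.92% lower, so that the guidance share of 6.15% lay below both. In all, 24 guidance genes passed the size rule in at least 1 of the 4 comparisons.

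**Figure D2:**
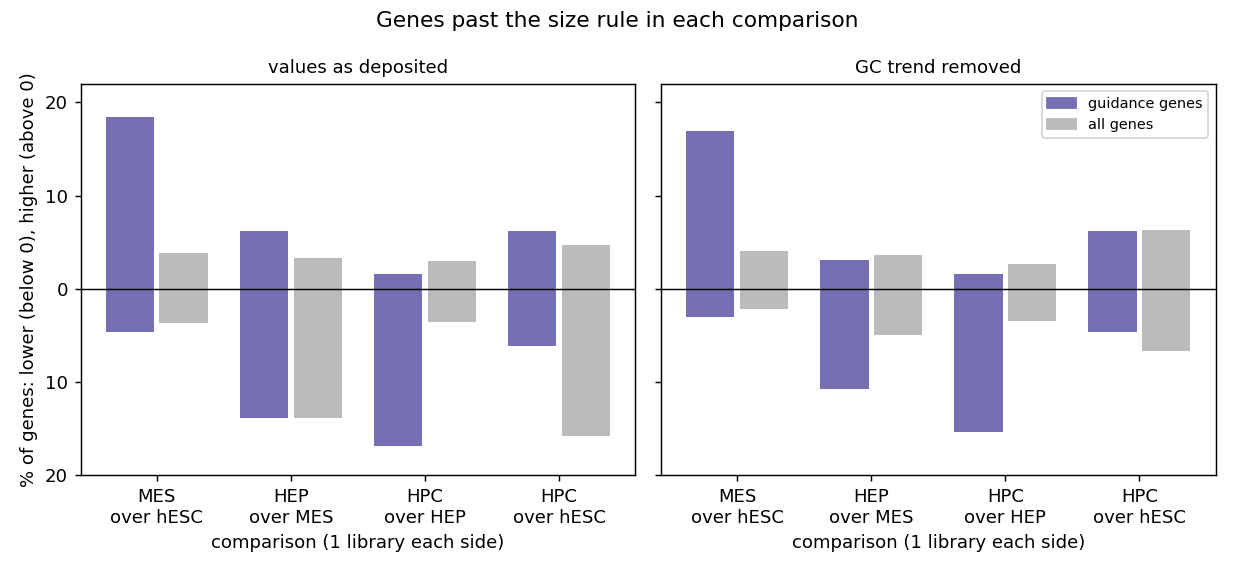
Share of genes past the size rule in each comparison, higher above 0 and lower below it, for the 65 guidance genes (purple) and all 17630 genes (grey), from the values as deposited (left) and with the trend along GC content removed (right). In MES over hESC 18.5% of guidance genes were higher, against 3.79% of all genes, and in HPC over HEP 16.9% were lower, against 3.57%.

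Differences between these libraries vary with the GC content of the transcripts, and guidance transcripts are rich in GC (median 59.0% over the 65, against 50.6% over 17428 genes with a value). For HEP over MES, GC content and the log2 difference had a Spearman correlation of 0.71 across 6366 genes, which are not independent replicates. Sorted by GC content and split into 10 equal groups, the group lowest in GC had a median difference of -1.87 and the group highest in GC 0.49. With this trend removed from each library, the MES library had 11 guidance genes above hESC and 2 below it (16.9% and 3.08%, against 4.07% and 2.17% of all genes). For HEP over MES the counts were 2 higher and 7 lower (3.08% and 10.8%, against 3.65% and 4.97%), so the share of lower genes then stood above that of all genes. For HPC over HEP they were 1 and 10 (1.54% and 15.4%, against 2.67% and 3.49%), and for HPC over hESC 4 and 3 (6.15% and 4.62%, against 6.34% and 6.64%). Across the same 6366 genes, the correlation with GC content for HPC over HEP was -0.43 as deposited. The median of the guidance genes for that step was -0.34 with the trend removed, against 0 over all genes. The calls lost are named with each gene.

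**Figure D3:**
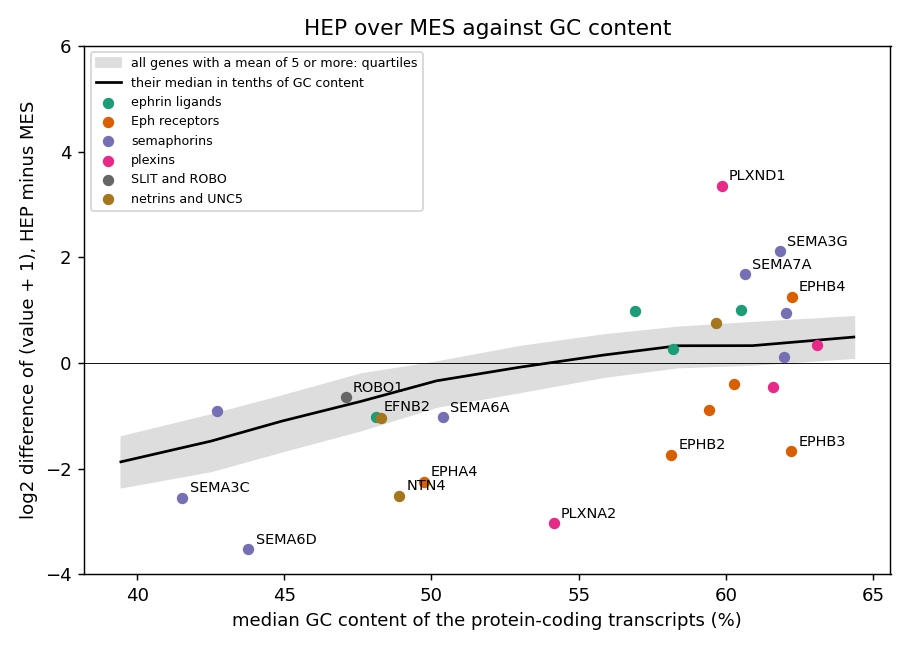
Log2 difference of (value + 1), HEP minus MES, against the median GC content of each gene's protein-coding transcripts; points are the 26 guidance genes at 5 or more in any library, and the black line and grey band are the median and quartiles of 6366 genes in 10 equal groups by GC content. PLXND1, SEMA3G and SEMA7A are among those above the band and EPHA4, EPHB2, EPHB3, NTN4, PLXNA2 and SEMA6D among those below it, while EFNB2 and ROBO1 lie within it.

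Promoters are shown for the genes with the largest rise at the first step and into HEP, so that the starts of genes higher at the same step can be compared. Of the genes higher in MES than in hESC, and of those higher in HEP than in MES, the 3 with the largest difference and a sole listed start were taken. Sequences are from RefSeq (GRCh38.p14, whereas the deposited values were made on hg19) and run 5′ to 3′ over the 250 bases before the transcription start. Capitals mark GC boxes, GGGCGG or its reverse complement CCGCCC, the core bound by SP1-type factors. The first 3 genes were chosen as higher in MES than in hESC and the next 3 as higher in HEP than in MES. The 2 sets are not exclusive, since EPHA2 also stood at 46.4 in HEP and EPHB4 at 37.2 in MES. SEMA3G (1.83) and EPHB4 (0.83) were not called higher in HEP than in MES with the GC trend removed.
PLXNA2, chr1:208244385-208244634, minus strand: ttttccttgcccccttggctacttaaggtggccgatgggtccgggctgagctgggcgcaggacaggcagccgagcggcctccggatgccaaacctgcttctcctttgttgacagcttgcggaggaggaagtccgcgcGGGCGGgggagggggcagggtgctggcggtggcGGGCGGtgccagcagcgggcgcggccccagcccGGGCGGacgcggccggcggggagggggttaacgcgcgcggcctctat
EPHB3, chr3:184561535-184561784, plus strand: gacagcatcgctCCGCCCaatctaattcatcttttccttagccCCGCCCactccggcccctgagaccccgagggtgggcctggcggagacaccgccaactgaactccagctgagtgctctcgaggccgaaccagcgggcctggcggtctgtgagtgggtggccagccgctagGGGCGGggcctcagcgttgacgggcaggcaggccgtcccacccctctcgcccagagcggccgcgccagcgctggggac
EPHA2, chr1:16156070-16156319, minus strand: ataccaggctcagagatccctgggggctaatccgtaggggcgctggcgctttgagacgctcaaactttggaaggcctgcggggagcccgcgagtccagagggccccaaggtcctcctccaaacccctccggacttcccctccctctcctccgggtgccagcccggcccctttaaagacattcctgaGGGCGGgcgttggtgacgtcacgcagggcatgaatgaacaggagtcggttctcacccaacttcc
PLXND1, chr3:129606677-129606926, minus strand: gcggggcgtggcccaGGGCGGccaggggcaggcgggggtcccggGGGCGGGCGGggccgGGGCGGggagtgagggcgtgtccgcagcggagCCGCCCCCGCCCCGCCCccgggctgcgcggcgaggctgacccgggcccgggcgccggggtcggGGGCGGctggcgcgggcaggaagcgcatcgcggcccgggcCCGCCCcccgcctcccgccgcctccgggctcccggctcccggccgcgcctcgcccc
SEMA3G, chr3:52445104-52445353, minus strand: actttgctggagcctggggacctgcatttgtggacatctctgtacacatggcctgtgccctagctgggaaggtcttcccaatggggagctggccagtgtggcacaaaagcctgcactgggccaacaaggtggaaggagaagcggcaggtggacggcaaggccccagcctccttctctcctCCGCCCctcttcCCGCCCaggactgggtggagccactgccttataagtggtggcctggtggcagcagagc
EPHB4, chr7:100827524-100827773, minus strand: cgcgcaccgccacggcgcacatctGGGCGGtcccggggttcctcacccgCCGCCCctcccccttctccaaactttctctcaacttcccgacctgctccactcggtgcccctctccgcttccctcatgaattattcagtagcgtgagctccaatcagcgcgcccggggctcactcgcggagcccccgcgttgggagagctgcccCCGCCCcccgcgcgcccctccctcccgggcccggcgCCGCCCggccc
The PLXND1 window held 9 GC boxes (overlapping ones counted), 41 CpG pairs and 88.8% GC, whereas that of SEMA3G held 2 GC boxes, 4 CpG pairs and 62.0% GC. PLXNA2 had 3 GC boxes, EPHB3 had 3, EPHA2 had 1 and EPHB4 had 4. GC boxes were thus found in 6 of the 6 windows, and in 49 of the 56 guidance genes with a promoter in the table in at least 1 of their starts, against 46.2% of 27305 genes counted the same way and 42.6% of 35116 starts. An E box, CANNTG, was found in EPHB3, SEMA3G and EPHB4 (3 of 6, against 61.8% of all starts). Searched on both strands, 0 of the 6 windows held the ETS-type letters CGGAAG (16.5% of all starts), the FOX-type letters GTAAACA (2.98%), the GATA-type letters AGATAA (9.17%) or the T-box letters GGTGTG (14.2%). Of the 56 guidance genes, any start held an E box in 33 (against 66.7% of the 27305 genes) and ETS letters in 8 (19.4%). FOX letters were found in 1 (3.66%), GATA letters in 5 (11.1%) and T-box letters in 10 (16.9%). The GC box is made of G and C alone, and its share was not compared at equal GC content. These matches describe letters in a window and no binding.

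Among the 8 ephrins, EFNA1, EFNB1 and EFNB2 reached 5 or more in a later library but not in hESC, while EFNA4 was above 5 in all 4. EFNA1, the main ligand of EPHA2 and an endothelial, cytokine-inducible gene, stood at 0.88 (hESC), 5.27 (MES), 11.3 (HEP) and 12.3 (HPC). It was lowest in hESC and above 10 in both later libraries, with a log2 difference of 1.74 for MES over hESC and 2.83 for HPC over hESC; the first was not called under median-of-ratios or upper quartile scaling, which put the MES value below 5. EFNA4, another GPI-anchored ligand, stood at 10.5, 8.92, 11.0 and 5.99 in the same stage order and passed the rule in no comparison. EFNB1, a transmembrane ephrin, stood at 2.71, 7.77, 16.5 and 7.35, highest in HEP. Its differences were 1.24 for MES over hESC, 0.995 for HEP over MES, which is just under the rule, and -1.07 for HPC over HEP (-0.85, no longer called, with the GC trend removed). Under 4 other scalings EFNB1 (1.22 to 1.52) and EFNA1 (1.19 to 1.47, against 0.97 as deposited) were called higher in HEP than in MES, but not with the GC trend removed.

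EFNB2, the arterial ephrin, had another course, at 3.25 (hESC), 6.16 (MES), 2.53 (HEP) and 9.48 (HPC). HPC was the highest library, and HEP the lowest in the values as deposited; with the GC trend removed (3.27 in HEP, against 2.45 in hESC) and under 4 other scalings hESC was the lowest. EFNB2 was lower in HEP than in MES by the rule (-1.02), but at -0.58 with the GC trend removed and between -0.84 and -0.57 under 4 other scalings it was not called. The higher level in HPC than in HEP (1.57) and than in hESC (1.30) kept its call under each of these. In the values as deposited, EFNB2 differed from the other arterial markers: for HEP over MES, 11 of 12 were above 0 and EFNB2 alone was below. With the GC trend removed 10 were above 0 and 2 below, EFNB2 and SOX17 (-0.22, against 0.10 as deposited). As deposited, 5 of the 12 were called higher (41.7%, against 3.31% of all genes). Of 5 venous markers, among them EPHB4, 4 were above 0 as deposited, and 2 were called higher (40%). The venous marker NR2F2 stood at 0.13 in HEP. Whether HEP was arterial or venous was not tested. Among ephrins below 5 throughout, EFNA5 stood at 1.03 (hESC), 3.81 (MES), 0.19 (HEP) and 0.14 (HPC). EFNA2 ranged from 0.36 in HPC to 2.65 in MES, EFNA3 from 0.55 in MES to 1.40 in hESC, and EFNB3 from 1.36 in HPC to 3.54 in HEP. The summed ephrin values were 23.4 (hESC), 38.1 (MES), 48.2 (HEP) and 38.0 (HPC); EFNA4 made up 44.8% of the sum in hESC, EFNB1 34.2% in HEP, and EFNA1 32.4% in HPC. Such shares, here and below, do not depend on the scaling of a library but assume values per transcript length, which the sources used here do not state.

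Of the 14 Eph receptors, the highest was EPHA1 in hESC, EPHA2 in MES, and EPHB4 in HEP and HPC. EPHA1, an Eph receptor of epithelia, stood at 54.9 (hESC), 14.9 (MES), 7.59 (HEP) and 1.04 (HPC). Its value was lower at each stage than at the one before, with differences of -1.81, -0.89 and -2.07, and -4.78 for HPC over hESC; the middle step was called only with the GC trend removed (-1.19). EPHA1 overlaps ZYX in GENCODE 29, so some of its reads may be shared. EPHA2, which binds EFNA1 and acts in epithelia and in vessel growth, stood at 9.57, 61.5, 46.4 and 10.9 in the same stage order. Its values in MES and HEP were far above those in hESC and HPC, with 2.56 for MES over hESC and -1.996 for HPC over HEP.

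EPHA4, a receptor that binds both ephrin classes and is known for boundaries between segments of the embryo, stood at 1.53 (hESC), 24.95 (MES), 4.46 (HEP) and 1.09 (HPC). It peaked in MES (3.36 for MES over hESC and -2.25 for HEP over MES), and it was also called lower in HPC than in HEP under 4 other scalings (-1.56 to -1.43) and with the GC trend removed (-1.51), which put its HEP value above 5. EPHB3, a receptor of B-class ephrins, had a like course at 0.32, 12.8, 3.34 and 1.30, with 3.38 for MES over hESC and -1.67 for HEP over MES. EPHB2, its close relative, stood at 2.58, 6.86, 1.36 and 0.17 (1.13 and -1.74). These 3 receptors were thus highest in MES and, as deposited, below 5 in each of the other 3 libraries.

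EPHB4, the venous receptor of EFNB2, was high in every library: 35.1 (hESC), 37.2 (MES), 89.9 (HEP) and 32.5 (HPC). HEP stood above the rest, with a difference of 1.25 over MES, and HPC was lower than HEP (-1.44). With the GC trend removed the first was 0.83 and no longer called, and the second was -1.17. EPHB4 overlaps SLC12A9 in GENCODE 29, and whether counting used strand is not given in the sources used here. The share of EPHB4 in the summed Eph values was 31.5% (hESC), 22.8% (MES), 57.7% (HEP) and 65.5% (HPC); EPHA1 made up 2.09% in HPC, against 49.2% in hESC, and EPHA2 37.8% in MES. The sums themselves were 111, 163, 156 and 49.6.

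The other 8 Eph receptors stayed below 5 in all 4 libraries. EPHA8 stood at 2.56 in hESC and 0.42 in MES, was listed at 0 in HEP and stood at 0.01 in HPC. EPHA7 ranged from 0.52 in HEP to 1.69 in hESC, and EPHB6, a receptor without kinase activity, from 1.01 in HEP to 1.31 in HPC. EPHA3, EPHA5, EPHA6, EPHA10 and EPHB1 stayed below 1.

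**Figure D4:**
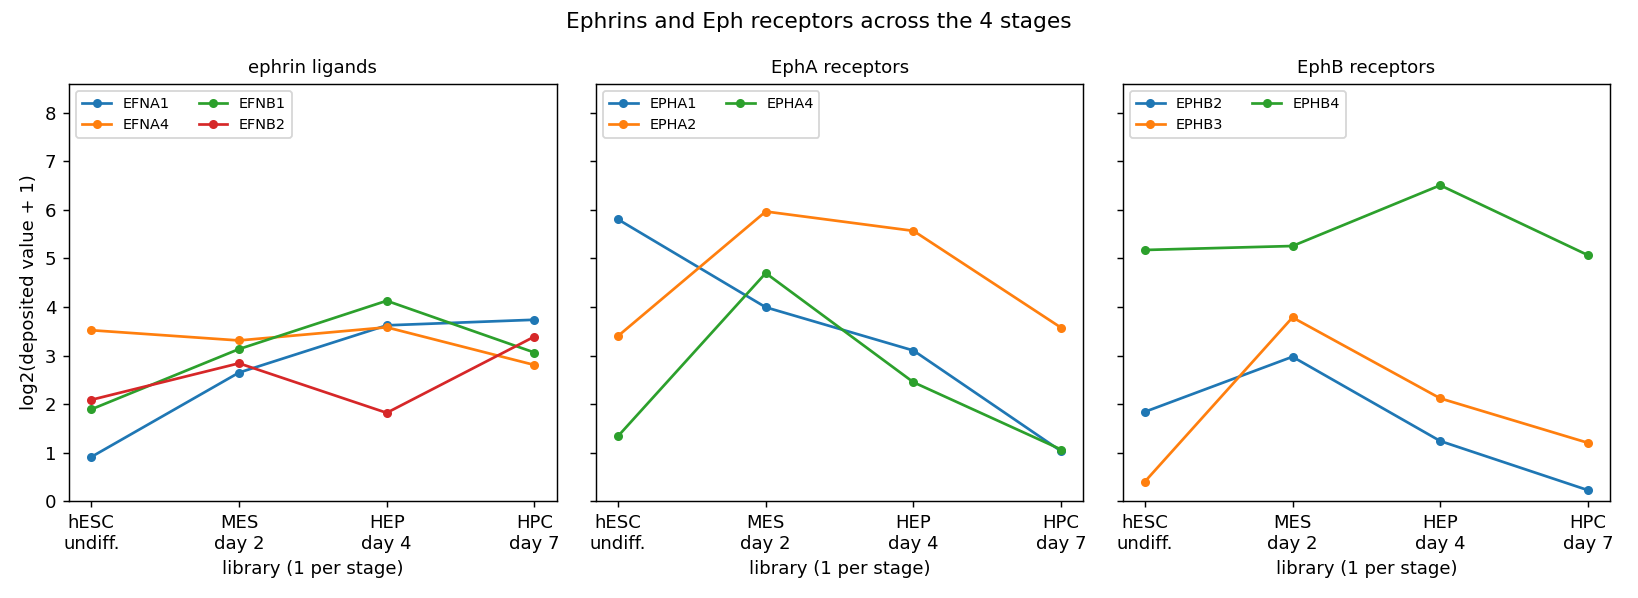
Log2(deposited value + 1) of the ephrins (left), EphA receptors (centre) and EphB receptors (right) at 5 or more in any library, across the 4 stages, with 1 library per point and no error bars. EPHA4, EPHB2 and EPHB3 peak in MES, EPHB4 and EFNB1 in HEP, and EFNB2 in HPC (9.48).

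Among the 20 semaphorins, different class 3 genes were highest at different stages. SEMA3A, the repulsive class 3 ligand that acts through neuropilin 1, stood at 8.88 (hESC), 1.06 (MES), 0.10 (HEP) and 0.05 (HPC). It was lower in MES than in hESC (-2.26) and in HPC than in hESC (-3.23). With the GC trend removed its hESC value was 4.87, under the minimum of 5, so that neither was called (-1.77 and -2.45). SEMA3C, a ligand known from mouse heart outflow tract formation, stood at 0.17, 7.57, 0.46 and 0.19, with 2.87 for MES over hESC and -2.55 for HEP over MES. Its MES value was 4.90 with the trend removed, so these too were then not called (2.44 and -1.61).

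SEMA3G, which in mouse is expressed by arterial endothelium, stood at 0.74 (hESC), 0.56 (MES), 5.75 (HEP) and 2.58 (HPC). It was higher in HEP than in MES by 2.11, just past the minimum; with the GC trend removed its HEP value was 4.75 and it was not called (1.83). SEMA3F, a ligand of neuropilin 2, stood at 4.09, 5.62, 6.19 and 1.35, and was lower in HPC than in HEP (-1.61). SEMA3E, the class 3 ligand that binds PLXND1 without a neuropilin, stayed below 5, at 0.36, 2.24, 0.22 and 0.16. SEMA3B and SEMA3D stayed below 1.

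Among the membrane-bound semaphorins, SEMA4C and SEMA7A were highest in HEP and SEMA6D in MES. SEMA4C, a transmembrane ligand of PLXNB2, was at 19.6 (hESC), 28.6 (MES), 55.8 (HEP) and 16.7 (HPC), the highest semaphorin in all 4 libraries. Its difference for HEP over MES was 0.94 and it was called only under 4 other scalings (1.17 to 1.497, but 0.53 with the GC trend removed), and HPC was lower than HEP (-1.68). SEMA7A, a GPI-anchored semaphorin that binds PLXNC1 and integrins, stood at 4.46, 5.31, 19.2 and 3.07. HEP exceeded each other library, with 1.68 over MES and -2.31 for HPC over HEP, and both calls held with the GC trend removed (1.37 and -2.09).

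SEMA6D, a transmembrane ligand of PLXNA1, stood at 0.10 (hESC), 14.4 (MES), 0.34 (HEP) and 0.42 (HPC). It was below 1 in each library but MES (3.81 for MES over hESC and -3.52 for HEP over MES). SEMA6A, a ligand of PLXNA2 and PLXNA4, stood at 17.6, 15.0, 6.82 and 3.41, with -2.08 for HPC over hESC. Its call for HEP over MES (-1.03) was lost with the GC trend removed (-0.76) and under 4 other scalings (-0.82 to -0.51). Of the semaphorins below 5, SEMA5A was at 4.25 in MES and 0.25 in hESC and was listed at 0 in HEP and HPC. SEMA5B stood at 2.90, 2.95, 0.34 and 0.30 in stage order, and SEMA6B at 4.31, 4.06, 1.65 and 0.83. SEMA6C ranged from 0.63 in hESC to 2.54 in MES, SEMA4B from 1.65 in MES to 3.01 in hESC, and SEMA4A from 0.22 in HPC to 1.52 in MES. SEMA4D, the ligand of PLXNB1, was listed at 0 in hESC and MES, and stood at 0.75 in HEP and 0.29 in HPC; SEMA4F and SEMA4G stayed below 1. The semaphorin sums were 69.4, 99.1, 104 and 33.4, of which SEMA4C made up 28.2%, 28.9%, 53.4% and 50.1%.

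Plexins, the semaphorin receptors, included the guidance gene with the largest difference in the 4 comparisons. PLXNA2, an A-type plexin that pairs with neuropilins or binds SEMA6A directly, stood at 0.15 (hESC), 45.7 (MES), 4.68 (HEP) and 0.93 (HPC). It was far higher in MES than in any other library (5.34 for MES over hESC and -3.04 for HEP over MES, or 5.37 and -3.08 with the GC trend removed). PLXND1, the plexin of developing endothelium, stood at 2.96, 11.1, 122.3 and 39.5. It was higher in MES than in hESC (1.61) and in HEP than in MES (3.35, or 3.02 with the GC trend removed), lower in HPC than in HEP (-1.61), and still higher in HPC than in hESC (3.35).

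PLXNA1, a receptor of class 3 and class 6 semaphorins, stood at 7.33 (hESC), 17.7 (MES), 12.7 (HEP) and 4.17 (HPC), with 1.17 for MES over hESC and -1.40 for HPC over HEP. PLXNB2, the receptor of SEMA4C, stood at 2.85, 5.37, 7.03 and 2.80, and was lower in HPC than in HEP (-1.08, or -0.82 and not called with the GC trend removed). Of the plexins below 5, PLXNB1 ranged from 0.49 in HPC to 2.88 in hESC and PLXNB3 from 0.16 in hESC to 1.06 in HEP. PLXNA3 was listed at 0 in hESC and stood at 0.61, 1.35 and 0.72 in MES, HEP and HPC. PLXNA4 and PLXNC1 stayed below 1. Within the family, the leading gene changed with the stage: PLXNA1 made up 43.3% of the sum in hESC, PLXNA2 54.7% in MES, and PLXND1 80.4% in HEP and 78.6% in HPC. The sums were 16.9, 83.5, 152 and 50.2.

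**Figure D5:**
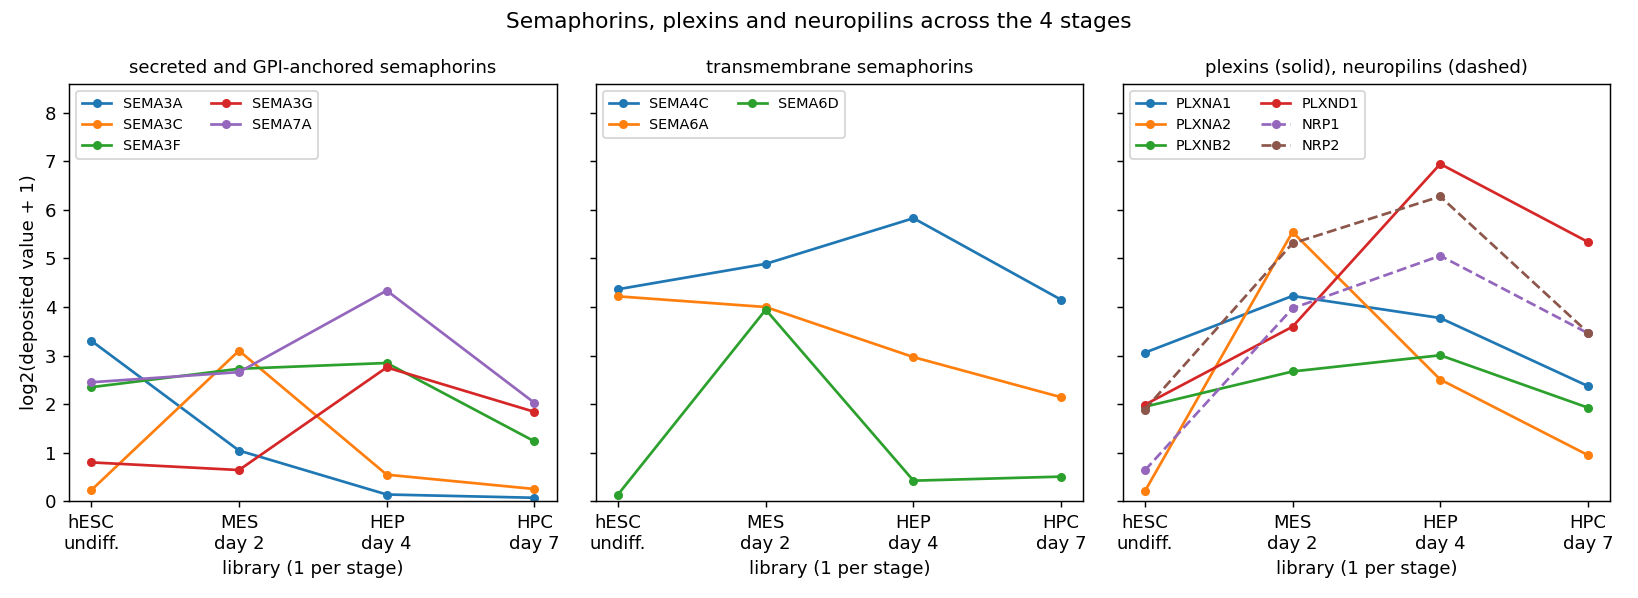
Log2(deposited value + 1) of secreted and GPI-anchored semaphorins (left), transmembrane semaphorins (centre), and plexins with the neuropilins NRP1 and NRP2 (right, neuropilins dashed), across the 4 stages, with 1 library per point and no error bars. SEMA3C, SEMA6D and PLXNA2 peak in MES, and SEMA7A, SEMA4C, PLXND1 and both neuropilins in HEP.

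SLIT and ROBO genes passed the rule in no comparison. ROBO1, a SLIT receptor, was the only gene of the 6 to reach 5, with 6.24 (hESC), 9.90 (MES), 5.97 (HEP) and 3.14 (HPC). SLIT2, a secreted ROBO ligand, stood at 0.92, 4.18, 2.54 and 1.52, and ROBO2 at 0.40, 0.77, 1.39 and 1.24. SLIT1, SLIT3 and ROBO3, a divergent ROBO of commissural axons, stayed below 1.

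Netrins and their receptors fell into 3 courses. NTN4, a laminin-related netrin of basement membranes, stood at 0.24 (hESC), 7.51 (MES), 0.49 (HEP) and 0.01 (HPC), and was high in MES alone (2.78 for MES over hESC and -2.51 for HEP over MES). NTN1, the classical netrin, had the same peak below the minimum of 5, at 0.36, 4.42, 0.47 and 0.11. UNC5D, a netrin receptor family member, stood at 10.2, 2.16, 0.53 and 0.16 and was highest in hESC, with -1.82 for MES over hESC and -3.27 for HPC over hESC. UNC5B, the UNC5 receptor of arterial and tip endothelium, stood at 5.77, 7.84, 13.9 and 3.03; it was highest in HEP and lower in HPC than in HEP (-1.88), and made up 89.4% of the family's sum in HEP. NTN3, NTN5, UNC5A and UNC5C stayed below 1.

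Set side by side, ligands and their receptors were not always present in the same library. In HPC, EPHB4 stood at 32.5 and its ligand EFNB2 at 9.48, against 89.9 and 2.53 in HEP. EFNA1 and EPHA2 stood at 5.27 and 61.5 in MES, at 11.3 and 46.4 in HEP, and at 12.3 and 10.9 in HPC, so that both were above 10 at the later stages. SEMA7A stood at 19.2 in HEP, where its plexin receptor PLXNC1 was at 0.04, while its integrin receptors were not set beside it here. SEMA4C and PLXNB2 stood at 55.8 and 7.03 in HEP. In MES, SEMA6D (14.4) and PLXNA1 (17.7), and SEMA6A (15.0) and PLXNA2 (45.7), stood together. PLXND1 stood at 122.3 in HEP, with SEMA3E at 0.22, whereas SEMA3F (6.19) and its receptor NRP2 (76.5) were both present there. Only some of the possible pairs are given. These are RNA levels, and cells outside the gates were not profiled here.

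Of 16 other guidance receptors and co-receptors, MES had 4 above hESC by the rule (25%, against 3.79% of all genes) and 0 below (against 3.7%). These were NRP2 (38.7 in MES, against 2.70 in hESC), NRP1 (14.7, against 0.55), the adhesion proteins FLRT3 (5.81, against 0.22) and L1CAM (8.75, against 1.16). FLRT3 was not called with the GC trend removed, which left 3. The median of the 16 was 0.15, against -0.02 over all genes. For HEP over MES, 1 was higher (6.25%, against 3.31% of all genes), NRP1 (32.2 in HEP, against 14.7 in MES), and FLRT3 and L1CAM were lower (12.5%, against 13.9% of all genes, so no more than the background). The difference of FLRT3 was -1.46 as deposited but -0.04 with the GC trend removed, when L1CAM alone was lower; NRP2 stood at 76.5 in HEP, a difference of 0.97. For HPC over HEP, 0 were higher (against 3.01%) and 2 lower (12.5%, against 3.57%), NRP1 (-1.60) and NRP2 (-2.80, at 10.1 in HPC, against 76.5 in HEP), which were also the 2 higher in HPC than in hESC (12.5%, against 4.66%). ROBO4, the endothelial ROBO, was at 1.23 in HEP, against 0.02 in MES, and at 0.59 in HPC, and DCC, the netrin receptor, stayed at or below 0.23.

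Among 39 measured genes that relay guidance signals inside cells, MES had 0 above hESC by the rule (against 3.79% of all genes) and 2 below (5.13%, against 3.7%), namely DPYSL3 (9.08, against 102) and DPYSL2 (33.8, against 71.2), which encode collapsin response mediators; DPYSL2 was not called with the GC trend removed (-0.95). For HEP over MES 5 were higher (12.8%, against 3.31% of all genes) and 6 lower (15.4%, against 13.9%, a share near the background). The higher genes were MICAL2, of the actin-oxidising MICAL family of the semaphorin pathway (24.4 in HEP, against 3.03 in MES), the exchange factor VAV3 (6.34, against 0.54), the tyrosine kinases FES (23.4, against 5.20) and FYN (14.4, against 6.06), and RRAS (7.52, against 3.11). The lower genes were RRAS2, CHN1, ITSN1, SDCBP, ADAM10 and NCK2. Without the GC trend the counts were 6 and 2 (15.4% and 5.13%, against 3.65% and 4.97% of all genes, so the lower share was near the background). RRAS was then not called (0.65), and the sign of SDCBP turned (0.40, against -1.36 as deposited). For HPC over HEP 0 were higher (against 3.01%) and 5 lower (12.8%, against 3.57%), or 1 and 8 without the GC trend (2.56% and 20.5%, against 2.67% and 3.49%), among them the collapsin response mediator CRMP1 (-2.35) and the plexin partner FARP1 (3.55, against 13.3). For HPC over hESC 3 were higher (VAV3, MICAL2 and FES; 7.69%, against 4.66%) and 12 lower (30.8%, against 15.8%), or 5 and 8 without the GC trend (12.8% and 20.5%, against 6.34% and 6.64%), led by DPYSL3 (2.45 in HPC, against 102 in hESC). The median of the 39 for that comparison was -0.67 (-0.14 over all genes), or -0.27 with the GC trend removed (0 over all genes).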

How the data were processed

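RNA of 4 cell populations was sequenced, 1 library each, with the Illumina TruSeq RNA kit per the labels' protocols. The deposited tables give each gene's normalised signal, rounded to 2 decimals by the authors. RSEM, Bowtie and BWA are named for this, with build hg19, per the submitters' processing notes; versions, roles, annotation and strand setting are not given in these notes or labels. Each table had 17634 rows; 4 rows sharing date-like names were left out, leaving 17630 genes. Guidance genes were matched by symbol. All 65 were kept, and those at 5 or more in any library or past the size rule are given in full. The members, lists, motifs and tests were chosen with earlier results of these data known.

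Differences, calls and medians were computed with Python 3.11.15, numpy 2.4.6 and pandas 2.3.3. GC content was the median over protein-coding GENCODE 29 transcripts (17428 genes, 98.9%; 65 of the 65). Each library's median deviation from the genes' means in 50 GC bins, averaged over 5 neighbouring bins, was divided out, which also rescales libraries to a common median. The procedure was tested on simulated data with a straight GC trend, weaker than that of HEP over MES, so that test does not cover this step. After the correction, GC content and the log2 difference for HEP over MES still had a Spearman correlation of 0.13. In GENCODE 29, 11 of the 65 overlap another protein-coding gene, so their reads may be shared. Alternatives were pseudocounts of 0.1 and 5, minimums of 0, 1 and 20, a log2 difference of 2, median-of-ratios, upper quartile and common-total scalings, and the GC correction.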

Additional observations from a re-analysis of the deposited data

How the results depend on the processing

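Of 48 differences of guidance genes that were called, 37 kept their call under all of the 4 scalings and the GC correction, and 8 under all 11 alternatives; 0 changed direction. A minimum of 20 gave 3 higher and 1 lower of the 65 guidance genes for MES over hESC, and 2 and 2 for HEP over MES. It gave 0 and 4 for HPC over HEP, and 1 and 1 for HPC over hESC, since fewer genes can pass it. With this minimum, 1.41% of all genes were higher and 1.63% lower for MES over hESC, and 1.63% and 4.71% for HEP over MES. For HPC over HEP these shares were 1.299% and 1.497%, and for HPC over hESC 1.88% and 6.39%. A log2 difference of 2 gave 7 and 1, 2 and 5, and 0 and 2 for the 3 successive steps, and 2 higher for HPC over hESC. The shares of all genes were 1.55% and 0.69%, 1.24% and 4.52%, and 0.76% and 0.98%, with 2.17% higher for HPC over hESC. A pseudocount of 5 gave 0 and 7 for HPC over HEP (against 1.65% and 2.14% of all genes) and 2 higher for HPC over hESC (against 3.11%). A minimum of 1, or none, gave 15 of 65 lower for HEP over MES (against 19.7% of all genes) and 10 of 65 lower for HPC over hESC (against 21.6%). Guidance genes lower in HPC than in HEP, 11 as deposited, numbered 15 with a common total (against 5.01% of all genes) and 13 under the other 3 scalings (against 3.75% to 4.15%). Among the scalings, the count that moved most in proportion was that of genes higher in HEP than in MES, 4 as deposited: it was 8 with median-of-ratios and upper quartile scaling (with 7 lower), 7 with both common-total scalings (with 7 lower) and 2 with the GC trend removed (with 7 lower). All genes were then 8.26%, 7.75%, 5.06%, 4.94% and 3.65% higher, and 8.20%, 8.54%, 11.7%, 11.5% and 4.97% lower, in that order. EFNA1, EFNB1 and SEMA4C joined the genes higher in HEP than in MES under all 4 scalings, and UNC5B under median-of-ratios and upper quartile scaling. EFNA1 lost its call for MES over hESC under median-of-ratios and upper quartile scaling, which put its MES value under the minimum. Median-of-ratios scaling shifted the median gene by 0.52 for HEP over MES and 0.56 for HPC over hESC, and the common total by 0.22 for MES over hESC and -0.19 for HPC over HEP. Over all genes the share of higher among called genes was 50.6% for MES over hESC (70.2% with a common total), 19.3% for HEP over MES and 22.8% for HPC over hESC (50.2% and 50.3% with median-of-ratios scaling), and 45.7% for HPC over HEP (30.6% with a common total). No paired analysis was possible because each group is 1 library. Depth is unknown, so values near 0 cannot be told from 0.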

Other observations

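Guidance genes that neighbour each other on a chromosome, with no other protein-coding gene listed between them in RefSeq (GRCh38.p14), were set side by side. Of these neighbours only EFNA1 and SEMA3A passed the size rule in any comparison, so whether neighbours share a course was not settled. SEMA3E, SEMA3A and SEMA3D follow each other on chromosome 7: SEMA3A was highest in hESC (8.88), SEMA3E in MES (2.24), and SEMA3D stayed at or below 0.07. EFNA3 and EFNA1 are neighbours on chromosome 1: EFNA1 stood at 12.3 in HPC, against 0.88 in hESC, and EFNA3 at 1.02, against 1.40. ROBO2 and ROBO1 are neighbours on chromosome 3: ROBO1 stood at 3.14 in HPC, against 6.24 in hESC, and ROBO2 at 1.24, against 0.40. With the GC trend removed, however, both were highest in HEP (ROBO1 at 8.37 and ROBO2 at 2.20), though ROBO1 was nearly level in MES (8.29). EFNA3 and EFNA4 share the overlapping locus AL691442.1 in GENCODE 29, so reads of these 2 genes may not be fully separated.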
